A study of Mus musculus with 79 samples.

Results

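The voltage-gated calcium and sodium channel genes were taken from the count table by their GENCODE symbols, as all Cacna, Cacnb and Cacng genes and all Scn genes that end in a or b, without Scn4b and without pseudogenes. This gave 39 of 55471 genes. They encode 10 pore-forming subunits of calcium channels (4 Cav1, 3 Cav2 and 3 Cav3 genes), 4 alpha2delta subunits, 4 beta subunits, 8 gamma proteins, 10 pore-forming sodium channel subunits and 3 sodium channel beta subunits. All 39 passed the main filter on low counts, although 6 of them stayed under 1 CPM (counts scaled to library size) on average in both regions.

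RNA came from tissue punches of the medial prefrontal cortex (mPFC) and the ventral hippocampus (vHipp) of 40 wild-type male CD-1 mice, an outbred stock, aged 9 to 10 weeks at the start and caged in groups of 4. CTRL mice stayed in their groups without defeat and CSDS mice went through 21 days of modified chronic social defeat, and mice of both kinds were then given an injection of saline or of 10 mg/kg (R,S)-ketamine and killed 7 days later. Each of the 4 combinations held 10 mice, and the 79 libraries were 39 of the mPFC (9 from ketamine-treated CSDS mice, since that of mouse 5 was not analysed here) and 40 of the vHipp. Total counts per library ranged from 11726129 to 34501588 in the mPFC and from 11782570 to 41767119 in the vHipp. Each library is a separate punch of 1 mouse, so p-values measure the spread between mice. Treatment was taken from the sample labels, while the labels used here give no social rank and no social box.

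Voltage-gated calcium channels open on depolarization and let calcium into neurons. Cav1 (L-type) channels couple activity to gene expression, Cav2 channels trigger transmitter release at synapses, and Cav3 (T-type) channels open near rest and favour burst firing. The beta and alpha2delta subunits bring the pore to the membrane and tune its gating. Several gamma proteins are known as TARPs, which traffic AMPA-type glutamate receptors and set their kinetics. Sodium channel pores carry the upstroke of the action potential, and their beta subunits adjust gating and cell adhesion. CACNA1C, CACNA1I and SCN2A are among the genes tied to psychiatric disorders in humans.

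Levels were compared between genes as CPM per kilobase (kb) of exon, since longer transcripts give more counts. In the mPFC the beta subunit Cacnb3 was at 66.8 ± 6.49 CPM per kb (SD, n = 39) and the sodium channel beta subunit Scn2b at 65.9 ± 5.58, which differed by less than their SD. In the vHipp (n = 40) Scn2b (74.8 ± 8.23) came before Cacnb3 (63.1 ± 5.56), Cacng8 (58.5 ± 7.03) and Scn3b (56.3 ± 6.85), and of these 3 neighbouring steps only the first was larger than the SD. The order of Cacnb3 and Scn2b depended on the length used. Per kb of the longest transcript, Cacnb3 was at 97.9 CPM and Scn2b at 65.86 in the mPFC. In the vHipp Cacnb3 then came first, at 92.55 against 74.77 for Scn2b.

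**Figure D1:**
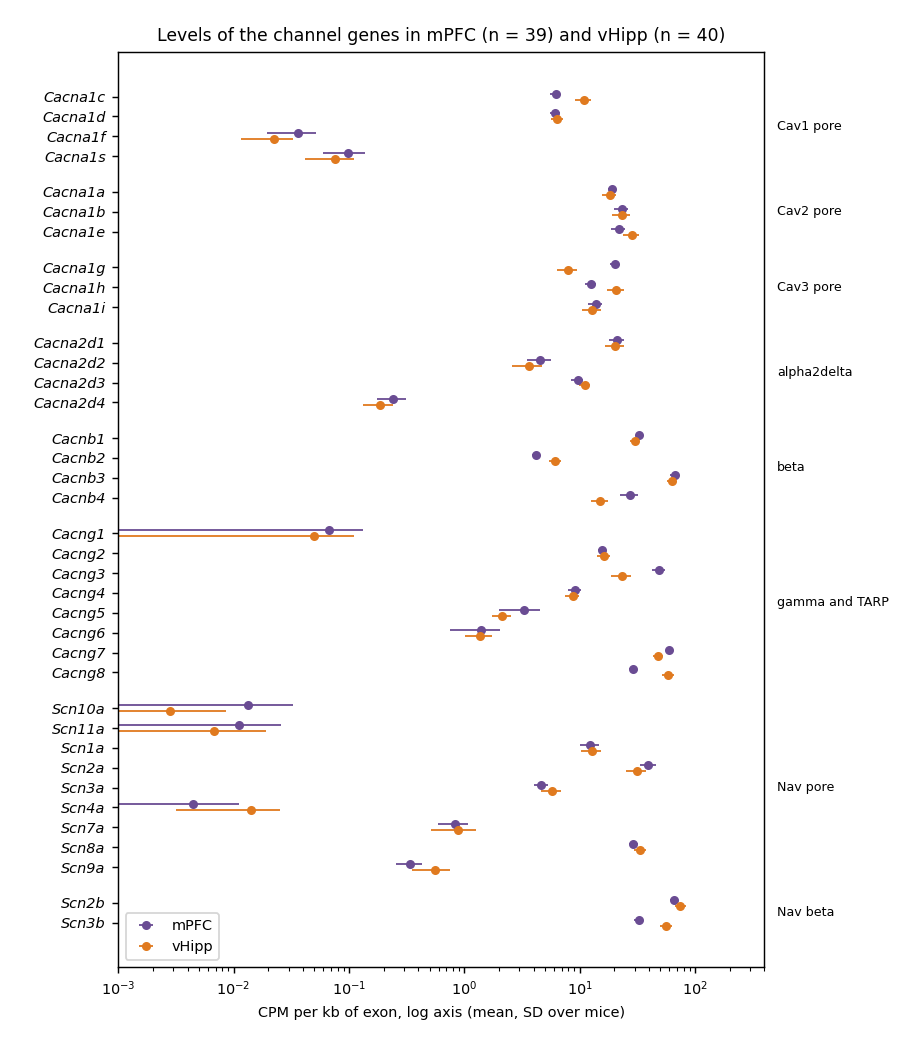
Mean CPM per kb of exon on a log axis for 37 of the 39 genes by role, with SD over mice; the mPFC has n = 39 and the vHipp n = 40, and bars that pass 0 run to the left edge. Cacnb3 (66.8 and 63.1) and Scn2b (65.9 and 74.8) lie at the high end in both regions, and Scn4a, Scn10a and Scn11a lie lowest.

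Among the sodium channel pores, Scn2a, a pore of excitatory neurons, held 44.9% ± 2.14 of the per-kb sum of the class in the mPFC and Scn8a, which supports repetitive firing, 33.9% ± 2.56. In the vHipp this order turned, with 36.4% ± 2.54 for Scn2a and 39.9% ± 3.22 for Scn8a. Their levels there, 31.2 ± 6.18 and 33.7 ± 4.21 CPM per kb, differed by less than their SD. Scn1a, the main pore of parvalbumin interneurons, held 14.1% ± 1.68 and 14.9% ± 1.72. At the other end, the muscle and sensory neuron genes Cacna1s, Cacna1f, Cacng1, Scn4a, Scn10a and Scn11a were at most 0.0982 CPM per kb in either region. A fold between such genes rests on few counts. Scn10a had 0 to 15 counts per library in the mPFC and 0 to 3 in the vHipp, and Scn4a had 0 to 3 and 0 to 6.

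The regions were compared first. In the mean of the 4 groups, 26 of the 39 genes differed between mPFC and vHipp (edgeR's quasi-likelihood test, Benjamini-Hochberg adjusted p under 0.05), 13 in each direction. The same call was made for 48.9% of all 31534 genes tested, 24.5% higher in the mPFC and 24.4% higher in the vHipp. DESeq2 called 26 channel genes and 45.9% of all genes. Among genes with at least 100 counts per library on average, 21 of 30 channel genes were called, 70.0%, against 69.6% of all genes at that depth, so the share among channel genes was near that of all genes at this depth. A difference of at least 1.5-fold was called for 12 channel genes and for 21.1% of all genes. The CPM of all mPFC libraries lay apart from that of all vHipp libraries for 4 channel genes, Cacna1g, Cacnb2, Cacng3 and Cacng8, and for 2.92% of all genes. These are bulk samples, in which more cells of a type and more RNA per cell cannot be told apart.

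**Figure D2:**
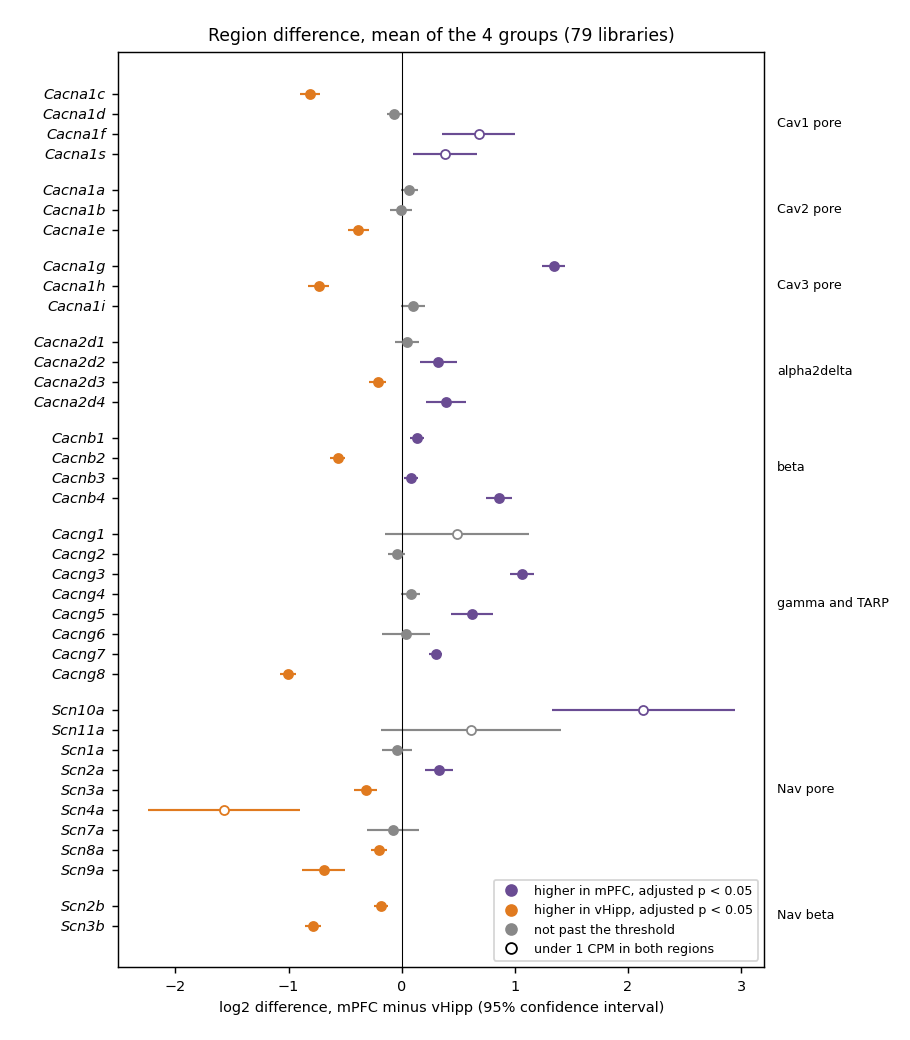
The log2 difference between mPFC and vHipp (mean of the 4 groups, 79 libraries) with its 95% confidence interval for 37 of the 39 genes by role. Cacna1g at 1.34 and Cacng3 at 1.06 lie on the mPFC side, and Cacng8 at -1.01 and Cacna1c at -0.81 on the vHipp side; open circles mark genes under 1 CPM in both regions.

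Most but not all markers of the labelled tissue were higher in their own region. Of 6 cortex markers, 5 had the higher mean in the mPFC, with overlapping ranges for Rorb, Rspo1, Fezf2 and Foxp2. Tle4 had the higher mean in the vHipp (52.8 against 76.6 CPM). Of 6 hippocampus markers, 5 had the higher mean in the vHipp, with overlapping ranges for Spock1, Ociad2 and Zbtb20, and Wfs1 had it in the mPFC (170.4 against 62.7 CPM). Cux2, a marker of upper cortical layers, ranged from 123.3 to 300.1 CPM in the mPFC and from 26.2 to 53.5 in the vHipp, and the dentate gyrus marker Prox1 ranged from 14.5 to 34.3 and from 48.1 to 287.6. The 5 pan-neuronal markers summed to 4271 to 6174 CPM in the mPFC and 3604 to 6677 in the vHipp, with overlapping ranges, while the 3 excitatory markers had a higher median in the vHipp (6762 against 5386 CPM). The 4 oligodendrocyte markers spread widely, from 436.6 to 4907 and from 881.6 to 3195 CPM. The part of these cell types in the region differences was not tested. Mouse 1 in the mPFC and mouse 11 in the vHipp, both ketamine-treated CSDS mice, gave the libraries farthest from the median library of their region, with root mean square log2 deviations of 0.33 and 0.45 against medians of 0.197 and 0.212. Without these mice, all 26 calls between the regions were kept and Cacng4 was added.

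In the Cav1 class, Cacna1c, the main L-type pore of the brain, was higher in the vHipp. It ranged from 107.7 to 159.5 CPM in the mPFC (median 133.7) and from 157.0 to 296.6 in the vHipp (median 237.8). The ranges met only at their edges, and the vHipp value was higher in 39 of 39 mice with both regions. The log2 difference, mPFC minus vHipp, was -0.81 ± 0.04 (SE), 1.76-fold, with an adjusted p of 3.17e-29 in edgeR. Cacna1d, the other neuronal L-type pore, was at 92.9 ± 8.81 and 97.2 ± 12.0 CPM, a log2 difference of -0.06 ± 0.03 with an edgeR adjusted p of 0.108. Cacna1c and Cacna1d thus held 49.7% ± 2.45 and 49.2% ± 2.37 of the per-kb sum of the Cav1 pores in the mPFC, and 62.3% ± 3.01 and 37.1% ± 2.91 in the vHipp. Cacna1d was called with the mouse as a block, but not with the block and an offset for GC content together. The low genes Cacna1f (0.326 ± 0.148 and 0.202 ± 0.097 CPM) and Cacna1s (0.643 ± 0.252 and 0.496 ± 0.225) were called higher in the mPFC, with no more than 28 counts in any library, and Cacna1s lost its call in 3 of the 5 fits that left out a block of mice.

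Of the 3 Cav2 pores, which drive transmitter release, Cacna1e (R-type) differed. It spanned 407.3 to 680.8 CPM in the mPFC (median 558.3) and 488.3 to 953.4 in the vHipp (median 714.2). The ranges overlapped, with 36 of 39 mice higher in the vHipp, and the log2 difference was -0.38 ± 0.05 (SE, edgeR adjusted p = 3.58e-11). Cacna1a (P/Q-type) had a log2 difference of 0.07 with a 95% confidence interval of -0.01 to 0.14, and Cacna1b (N-type) had one of -0.01 with an interval of -0.10 to 0.09.

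The T-type pores held the largest region difference among channel genes above 1 CPM. Cacna1g ranged from 173.6 to 240.1 CPM in the mPFC (median 201.9) and from 49.0 to 117.4 in the vHipp (median 82.8). The lowest mPFC library thus lay above the highest vHipp library, and the log2 difference was 1.34 ± 0.05 (SE, 2.54-fold, edgeR adjusted p = 2.33e-38). Cacna1h went the other way, from 95.1 to 173.8 CPM in the mPFC (median 123.4) and up to 265.5 in the vHipp (median 201.6). Its ranges overlapped, but all 39 mice were higher in the vHipp, by a log2 difference of -0.73 ± 0.05 (SE, 1.66-fold, edgeR adjusted p = 3.96e-25). Cacna1i, the T-type pore typical of the thalamic reticular nucleus, was at 136.2 ± 19.2 and 127.2 ± 23.7 CPM (log2 difference 0.10 ± 0.05, edgeR adjusted p = 0.126, called with the mouse as a block but not with the block and the GC offset). Counted per kb, Cacna1g held 43.3% ± 1.78 of the Cav3 sum in the mPFC and 19.1% ± 3.80 in the vHipp, and Cacna1h 27.1% ± 3.12 and 49.9% ± 6.23.

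**Figure D3:**
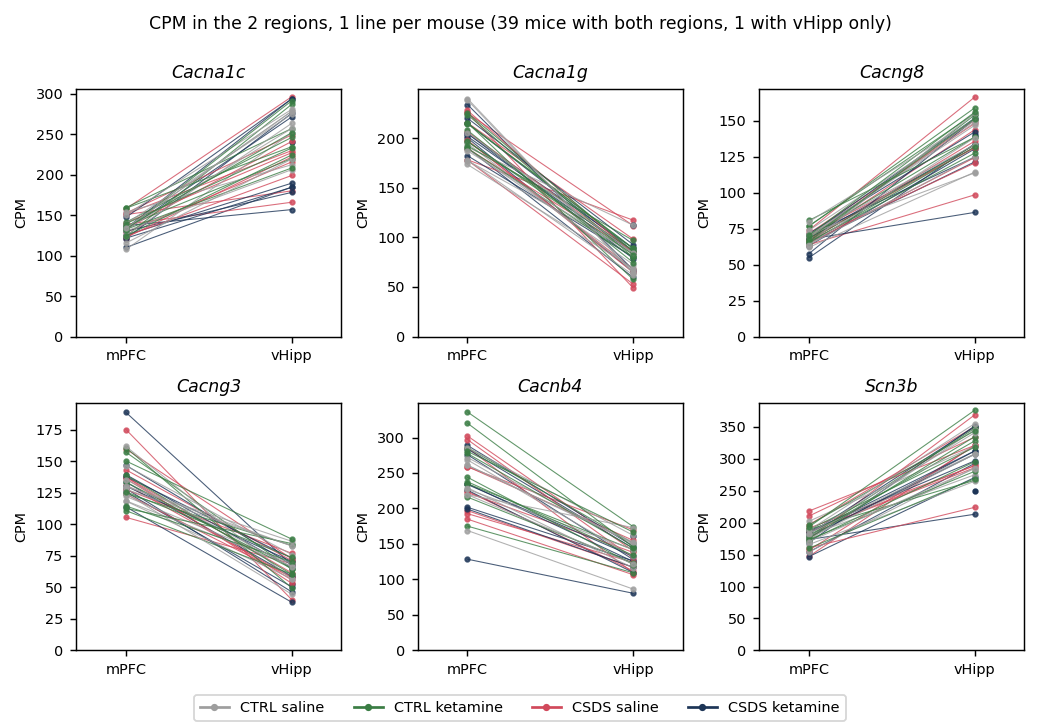
CPM of Cacna1c, Cacna1g, Cacng8, Cacng3, Cacnb4 and Scn3b in the mPFC and the vHipp, 1 line per mouse, coloured by group. Each line joins the regions of 1 mouse, and all 39 lines of each gene run the same way, down to the vHipp for Cacna1g, Cacng3 and Cacnb4 and up for the others.

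The 4 alpha2delta genes encode the subunits that bind gabapentin-type drugs (Cacna2d1 and Cacna2d2) and their relatives. Cacna2d1 was the most abundant, at 263.4 ± 39.4 and 253.7 ± 46.0 CPM, with an edgeR adjusted p of 0.464 for the region. It was called with the GC offset, both alone and together with the mouse as a block. Cacna2d2 ranged from 21.8 to 64.9 CPM in the mPFC (median 35.8) and from 17.5 to 51.3 in the vHipp (median 29.6), and its log2 difference was 0.33 ± 0.08 (SE, edgeR adjusted p = 4.88e-04). Cacna2d3 ranged from 66.7 to 112.7 (median 83.3) and from 67.1 to 120.6 (median 98.4), with a log2 difference of -0.21 ± 0.04 (edgeR adjusted p = 1.59e-06). Ranges overlapped for both genes, and 29 and 33 of 39 mice went the way of the mean. Cacna2d4, at 2.30 ± 0.652 and 1.78 ± 0.529 CPM, differed by 0.39 ± 0.09 on the log2 scale (edgeR adjusted p = 1.19e-04).

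All 4 beta subunits were called. Cacnb4, whose loss causes ataxia and epilepsy in the lethargic mouse, was higher in the mPFC, where it ranged from 128.5 to 336.0 CPM (median 237.7) against 80.5 to 174.3 in the vHipp (median 133.2). The low end of the mPFC range overlapped the vHipp range, while within each of 39 mice the mPFC was higher. The log2 difference was 0.86 ± 0.06 (SE, 1.81-fold, edgeR adjusted p = 2.20e-23). Cacnb2 was higher in the vHipp, at 64.0 to 98.5 CPM (median 81.4) against 46.8 to 62.4 in the mPFC (median 55.1). Its ranges did not overlap, and the log2 difference was -0.57 ± 0.03 (edgeR adjusted p = 1.23e-26). Cacnb1 and Cacnb3, the most abundant beta subunits per kb, differed by 0.14 ± 0.03 and 0.08 ± 0.03 on the log2 scale (edgeR adjusted p of 5.48e-05 and 0.0206), with overlapping ranges, and Cacnb3 was not called without the first block of 8 mice by library number.

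The gamma genes held an opposed pair of TARPs. Cacng8, the TARP best known from hippocampal pyramidal neurons, ranged from 54.8 to 80.7 CPM in the mPFC (median 67.9) and from 86.3 to 166.4 in the vHipp (median 138.4). Every vHipp library lay above every mPFC library, with a log2 difference of -1.01 ± 0.03 (SE, 2.01-fold, edgeR adjusted p = 5.00e-42). Cacng3, a TARP of the cortex, ranged from 105.6 to 188.9 CPM in the mPFC (median 131.3) and from 38.2 to 88.3 in the vHipp (median 65.9). Its ranges did not overlap either, and the log2 difference was 1.06 ± 0.05 (SE, 2.09-fold, edgeR adjusted p = 4.11e-31). Cacng8 held 17.5% ± 1.5 of the per-kb sum over gamma genes for mPFC tissue and 36.9% ± 3.45 for vHipp tissue, and Cacng3 29.1% ± 2.91 and 14.7% ± 2.45.

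The other called gamma genes, Cacng5 and Cacng7, are TARPs of the second type. Cacng5 spread from 6.25 to 28.9 CPM in the mPFC (median 11.2) and from 5.61 to 11.8 in the vHipp (median 7.86), with overlapping ranges and a log2 difference of 0.62 ± 0.10 (SE, edgeR adjusted p = 2.71e-08). Cacng7, the most abundant gamma gene per kb in the mPFC, differed by 0.30 ± 0.03 (edgeR adjusted p = 1.94e-15). Cacng2 (stargazin), Cacng4, Cacng6 and Cacng1 did not pass the threshold. For Cacng2 the 95% confidence interval of the log2 difference was -0.12 to 0.03.

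Promoter sequences are shown for 3 sodium channel pores of the gene cluster on chromosome 2. Scn1a and Scn2a were among the genes whose deviation from the group mean was shared by both regions of a mouse, as described further on, and Scn9a was among the pores that differed between the regions. A RefSeq window was matched for 29 of the 39 genes. In 10 of them its start of transcription lay within 5 bases of the gene's start in the counts table, and the windows printed were taken from these. Each runs over 250 bases up to the start of transcription (GRCm38.p6), from 5′ to 3′ on the strand of the gene. Scn2a is at chr2:65620519-65620768 on the plus strand, Scn1a at chr2:66440838-66441087 and Scn9a at chr2:66634963-66635212, both on the minus strand. Capitals mark matches to the E-box CANNTG and, in Scn1a and Scn2a, a shared run.
Scn2a: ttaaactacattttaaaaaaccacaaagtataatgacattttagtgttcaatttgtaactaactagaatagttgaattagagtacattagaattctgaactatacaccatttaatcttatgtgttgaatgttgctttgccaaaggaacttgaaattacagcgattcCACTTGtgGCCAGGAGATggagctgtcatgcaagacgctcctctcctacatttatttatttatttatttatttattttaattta
Scn1a: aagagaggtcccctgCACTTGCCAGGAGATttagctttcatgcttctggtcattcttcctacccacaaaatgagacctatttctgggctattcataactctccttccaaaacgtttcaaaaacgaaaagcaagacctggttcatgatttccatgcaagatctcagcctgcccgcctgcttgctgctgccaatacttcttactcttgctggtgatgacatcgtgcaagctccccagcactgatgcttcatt
Scn9a: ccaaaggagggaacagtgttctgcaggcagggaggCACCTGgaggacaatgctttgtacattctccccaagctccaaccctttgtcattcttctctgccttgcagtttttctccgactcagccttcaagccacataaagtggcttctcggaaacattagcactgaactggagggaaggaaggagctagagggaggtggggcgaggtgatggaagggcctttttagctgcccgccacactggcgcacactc
The windows of Scn1a and Scn2a shared GCCAGGAGAT, 10 bases long, which 0.116% of the 32851 windows of this length held on either strand. In Scn1a its first letter is also the last of the E-box, and in Scn2a the run follows shortly after it. The longest run common to Scn1a and Scn9a, GTCATTCTTC, also had 10 bases (0.0822% of windows), and that of Scn2a and Scn9a, CCAAAGGA, had 8 (1.33%). The runs were picked as the longest that each pair shared. How often 2 windows share some run of this length was not tested. Each window held 1 E-box, as did 66.2% of windows at least once. The GC box GGGCGG (32.7% of windows) and the TATA box TATAAA (12.4%), searched on both strands, had no match in these windows. G and C made up 29.6% of the letters in the Scn2a window, 46.8% in that of Scn1a and 54.4% in that of Scn9a.

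Of the 10 sodium channel pores, 6 were called between the regions, 2 higher in the mPFC and 4 in the vHipp. Scn2a ranged from 269.3 to 648.7 CPM in the mPFC (median 518.1) and from 205.1 to 558.5 in the vHipp (median 424.4). The ranges overlapped, but 38 of 39 mice were higher in the mPFC, by a log2 difference of 0.33 ± 0.06 (SE, edgeR adjusted p = 2.78e-06). Scn8a and Scn3a were higher in the vHipp, by 0.20 and 0.32 on the log2 scale (SE 0.04 and 0.05, edgeR adjusted p of 9.45e-07 and 1.73e-07), each in 35 of 39 mice. Scn1a had a log2 difference of -0.04 with a 95% confidence interval of -0.17 to 0.09.

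Scn9a, a pore known mostly from sensory and olfactory neurons, ranged from 2.24 to 6.55 CPM in the mPFC (median 4.32) and from 3.17 to 13.4 in the vHipp (median 6.62), with a log2 difference of -0.69 ± 0.09 (SE, 1.61-fold, edgeR adjusted p = 1.24e-09). The ranges overlapped. The antisense gene Gm13629 overlaps its exons and took 56.3% as many reads as Scn9a. It went the other way, at 3.80 CPM in the mPFC and 2.66 in the vHipp. How the reads were assigned by strand is not given in the sources used here, so the reads of the pair cannot be told apart. The remaining calls, Scn10a (0.105 ± 0.155 CPM in the mPFC and 0.0226 ± 0.0453 in the vHipp) and Scn4a (0.0315 ± 0.0468 and 0.0994 ± 0.0772), rest on few counts, and both genes were removed by edgeR's filterByExpr.

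The sodium channel beta subunits Scn3b and Scn2b were higher in the vHipp. Scn3b ranged from 146.9 to 218.2 CPM in the mPFC (median 178.8) and from 213.2 to 376.1 in the vHipp (median 310.0). The ranges touched only at the edge, all 39 mice were higher in the vHipp, and the log2 difference was -0.79 ± 0.04 (SE, 1.73-fold, edgeR adjusted p = 1.70e-33). Scn2b ranged from 246.2 to 355.5 CPM (median 310.9) and from 247.4 to 423.0 (median 352.7), with overlapping ranges, 31 of 39 mice higher in the vHipp and a log2 difference of -0.18 ± 0.03 (edgeR adjusted p = 2.00e-06). These subunits went with the pores Scn3a and Scn8a in direction, and against Scn2a.

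In CTRL mice given saline alone, 20 channel genes passed the threshold, against 29% of all genes. DESeq2 called 19 and 28.3% of all genes. With at least 100 counts per library there were 18 of 30, against 46.2%. Of the 20, 19 were also among the 26 called in the mean of the 4 groups. The exception was Cacna1d, with a log2 difference of -0.17 ± 0.07 (SE, edgeR adjusted p = 0.0488), which lost its call in most of the alternative fits. Ranges over these 10 mice did not overlap for 7 channel genes, Cacna1c, Cacna1g, Cacna1h, Cacnb2, Cacng3, Cacng8 and Scn3b, against 7.54% of all genes. Several values were close to those over all groups: Cacna1g differed by 1.37 ± 0.10, Cacng3 by 0.94 ± 0.10, Cacnb4 by 0.80 ± 0.11, Scn3b by -0.80 ± 0.07 and Cacna1c by -0.93 ± 0.09 on the log2 scale (SE, edgeR). Others lay farther off, with Scn9a at -1.01 ± 0.19 against -0.69 over all groups and Cacng5 at 0.82 ± 0.19 against 0.62. Scn2a, at 0.26 ± 0.12, was not called in these mice (edgeR adjusted p = 0.102).

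A list of 22 genes related to these channels was compared in the same way. It also held the leak channel gene Nalcn with Unc79 and Unc80, which belong to that channel. Of the list, 7 were higher in the mPFC and 9 in the vHipp, against 24.5% and 24.4% of all genes. Fgf12 and Fgf13, both intracellular fibroblast growth factor homologues that bind sodium channel pores, went opposite ways. Fgf12 was at 162.7 ± 17.8 CPM in the mPFC and 95.1 ± 12.0 in the vHipp (log2 difference 0.77 ± 0.04), and Fgf13 at 109.4 ± 9.90 and 250.5 ± 29.0 (-1.20 ± 0.04). Cachd1, an alpha2delta-like protein, was lower in the mPFC by 1.95 ± 0.07 on the log2 scale, and Rem2, a small GTPase that inhibits calcium channels through the beta subunit, by 1.85 ± 0.10 (edgeR adjusted p of 3.16e-42 and 6.76e-29). The ankyrin gene Ank2 had a difference of 0.01 ± 0.05 (edgeR adjusted p = 0.946), and Ank3, which anchors sodium channels at the axon initial segment, one of -0.20 ± 0.05 (edgeR adjusted p = 0.00123).

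The effect of stress, of ketamine and of their interaction was then tested in each region. In none of the 16 comparisons did a channel gene pass an edgeR adjusted p of 0.05, and neither did any other gene, among 28993 tested in the mPFC, 28991 in the vHipp and 31534 across the regions. DESeq2 called no gene in 15 of the comparisons and 14 genes, 0.0483% and none of them a channel gene, for the mean stress effect in the vHipp. The listed related genes gave 0 calls too. The comparisons within a region share control groups and are not independent of each other.

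**Figure D4:**
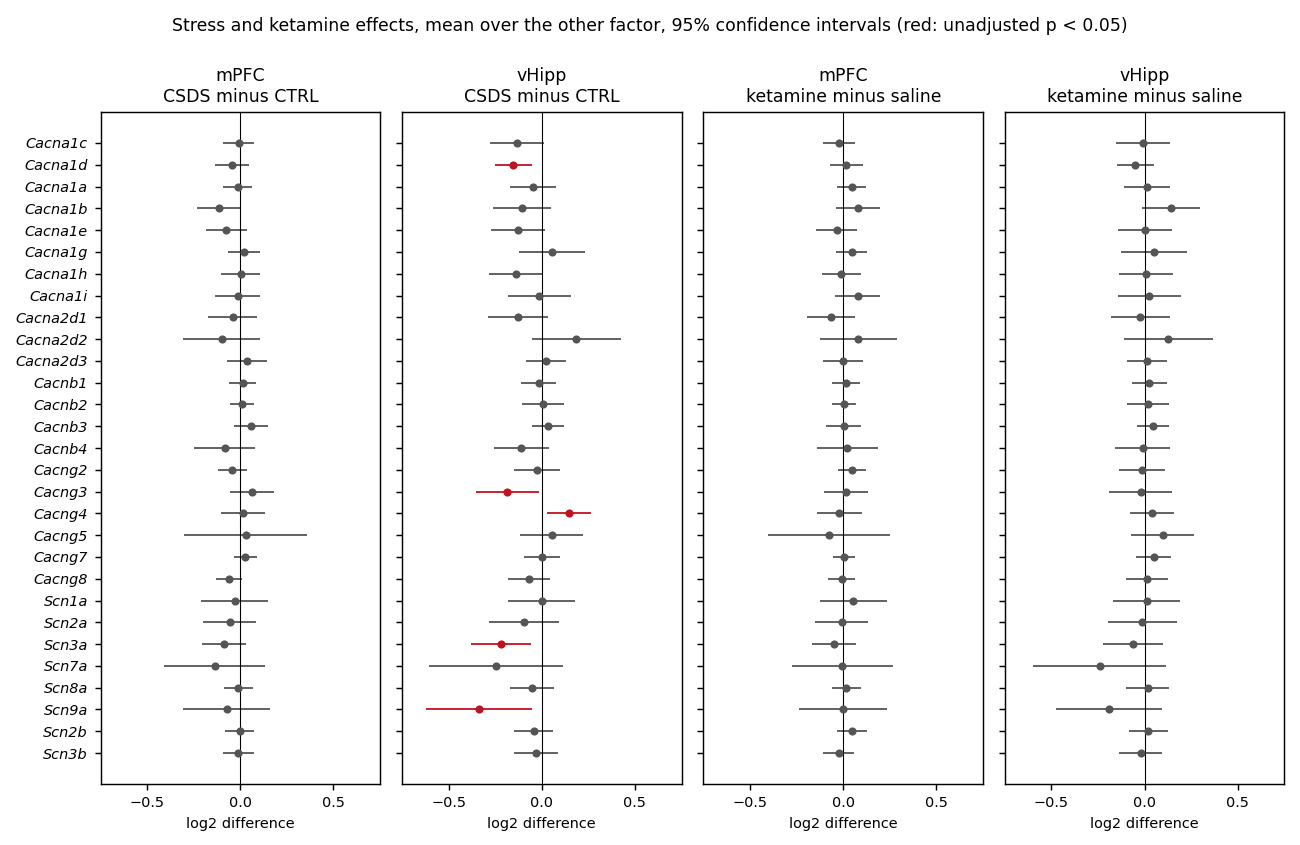
Log2 differences with 95% confidence intervals for the channel genes reported by name with at least 5 CPM in a region, for CSDS minus CTRL and ketamine minus saline, each as the mean over the other factor; red marks an unadjusted p under 0.05. All 5 red points are in the panel of stress in the vHipp, Cacna1d, Cacng3, Scn3a and Scn9a below 0 and Cacng4 above.

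Stress was given to whole cages of 4 mice, and the cage is not in the labels used here, so the intervals treat cage mates as independent and may be too narrow for stress. Of the 30 channel genes with at least 100 counts per library, 30 had a 95% confidence interval within ±0.5 on the log2 scale (1.41-fold) for the mean stress effect in the mPFC and 30 for the mean ketamine effect there, and in the vHipp 28 and 29 did. The estimates themselves lay between -0.14 and 0.06 for stress in the mPFC, between -0.34 and 0.18 for stress in the vHipp, between -0.08 and 0.09 for ketamine in the mPFC and between -0.24 and 0.14 for ketamine in the vHipp.

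Without adjustment, the largest number of channel genes was found for the mean stress effect in the vHipp, where 5 of 39 had a p under 0.05, against 9.71% of all genes. Of these, 2 had a p under 0.01, against 2.59%. Cacng4, a TARP, was estimated higher in CSDS mice (log2 difference 0.15 ± 0.06), and Cacna1d, Cacng3, Scn3a and Scn9a lower. Mouse 11, whose vHipp library stood farthest apart, had the highest Cacng4 of the vHipp (47.7 CPM, next 39.7), the lowest Cacng3 (38.2 CPM) and the highest sum of 4 astrocyte markers (2425 CPM, against a group median of 859.4). Their part in the result was not tested. Without mice 1 and 11, 4 channel genes and 8.29% of all genes had an unadjusted p under 0.05, and Cacng4 was at 0.10 ± 0.06 (edgeR, unadjusted p = 0.0747 and adjusted p = 0.641), Cacng3 at -0.17 ± 0.08, Cacna1d at -0.14 ± 0.05, Scn3a at -0.21 ± 0.08 and Scn9a at -0.32 ± 0.15 (SE). For Cacna1d, CPM ranged in CTRL mice from 85.9 to 121.6 with saline (median 102.6) and from 89.97 to 121.2 with ketamine (median 102.2), and in CSDS mice from 78.5 to 110.1 (median 93.3) and from 78.9 to 102.9 (median 89.4). The ranges of all 4 groups overlapped. The log2 difference was -0.15 ± 0.05 (SE, unadjusted p = 0.00375 and adjusted p = 0.34 in edgeR). For Scn3a, the pore prominent in the developing brain, medians were 85.3 and 81.5 CPM in CTRL mice with saline and ketamine, and 70.4 and 68.0 in CSDS mice, with ranges of 56.3 to 96.6, 57.4 to 94.9, 53.1 to 98.1 and 47.5 to 86.3. These also overlapped, and the log2 difference was -0.22 ± 0.08 (SE, unadjusted p = 0.00956 and adjusted p = 0.385 in edgeR).

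With ketamine, 4 channel genes had an unadjusted p under 0.05 for stress in the vHipp (5.42% of all genes), and 1 under 0.01 (0.914%). The smallest p was that of Cacna2d4, at 1.29 to 3.39 CPM (median 1.99) in CTRL mice and 0.829 to 2.02 (median 1.57) in CSDS mice, 14 to 71 counts per library. The ranges overlapped, and the log2 difference was -0.50 ± 0.18 (SE, unadjusted p = 0.00814 and adjusted p = 0.896 in edgeR). With saline no channel gene reached an unadjusted p of 0.05 in the vHipp (5.57% of all genes did).

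In the mPFC of ketamine-treated mice, 4 channel genes had an unadjusted p under 0.05 for stress (5.8% of all genes), all estimated lower in CSDS mice, and 2 a p under 0.01 (1.04%). Cacna1e, the R-type pore, ranged from 524.5 to 678.6 CPM in CTRL mice (n = 10, median 569.0) and from 407.3 to 616.8 in CSDS mice (n = 9, median 510.0). With saline it ranged from 430.0 to 635.1 in CTRL mice (median 539.7) and from 460.9 to 680.8 in CSDS mice (median 567.3). All ranges overlapped. The log2 difference with ketamine was -0.23 ± 0.08 (SE, unadjusted p = 0.00554 and adjusted p = 0.83 in edgeR), and the interaction of stress and ketamine was -0.31 ± 0.11 (unadjusted p = 0.00689 and adjusted p = 0.898 in edgeR). Scn3a ranged from 57.5 to 70.6 CPM in CTRL mice with ketamine (median 61.9) and from 38.7 to 65.6 in CSDS mice (median 50.7), with a log2 difference of -0.23 ± 0.08 (unadjusted p = 0.00875 and adjusted p = 0.83 in edgeR). With saline its ranges were 46.0 to 72.4 and 47.5 to 74.5. The lowest value of Scn3a was that of mouse 1, whose library stood farthest apart in the mPFC, and without mice 1 and 11 the log2 differences with ketamine were -0.22 ± 0.08 for Scn3a and -0.23 ± 0.08 for Cacna1e (SE). The oligodendrocyte markers summed to 489.0 to 2853 CPM in these CTRL mice (median 1293) and to 436.6 to 4907 in the CSDS mice (median 1870), and their part in the result was not tested. Cacna1b and Cacng8 were the other 2 genes, by -0.19 and -0.10 on the log2 scale, or -0.13 and -0.11 without mice 1 and 11. Their unadjusted p was then 0.127 and 0.0518 (edgeR). Without these mice, 3 channel genes had an unadjusted p under 0.05 (5.35% of all genes).

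The remaining comparisons gave few unadjusted results. In the mPFC these were 1 gene for stress with saline (2.94% of all genes), 0 for ketamine in CTRL mice (3.64%), 3 for ketamine in CSDS mice (4.32%) and 3 for the interaction (5.31%), of which 1, Cacna1e, was under 0.01 (0.98%). Without mice 1 and 11 these 4 comparisons gave 1 (2.96%), 1 (3.86%), 4 (4.53%) and 5 (5.02%). Neither mean effect there gave any (3.52% of all genes for stress and 3.07% for ketamine). In the vHipp there were 0 for ketamine in CTRL mice (2.88%), 2 for ketamine in CSDS mice (2.9%), 2 for the interaction (2.84%) and 0 for the mean ketamine effect (3.39%). With mice 1 and 11 left out they were 0 (3.12%), 3 (3.2%), 3 (3.09%) and 1 (3.66%). The 2 genes for ketamine in CSDS mice were Cacng1 and Scn10a, with no more than 7 counts in any vHipp library. Their unadjusted p without these mice was 0.135 and 0.0631 (edgeR). The mean stress effect differed between the regions at an unadjusted p under 0.05 for 2 channel genes (6.86% of all genes), Cacng3 and Cacna2d4, with adjusted p of 0.663 and 0.716 in edgeR. The mean ketamine effect did so for 0 (3.46%).

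The same mice were then followed across the regions. For the 33 channel genes of at least 1 CPM in both regions, the deviation of each mouse from its group mean (log2 CPM) was compared between its mPFC and its vHipp. The median Pearson r was 0.202, against 0.294 over 15184 genes. In 6 channel genes, 18.2%, r was at least 0.5, against 22% of all genes. All 33 correlations were computed over 39 mice, and their p-values were not adjusted.

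**Figure D5:**
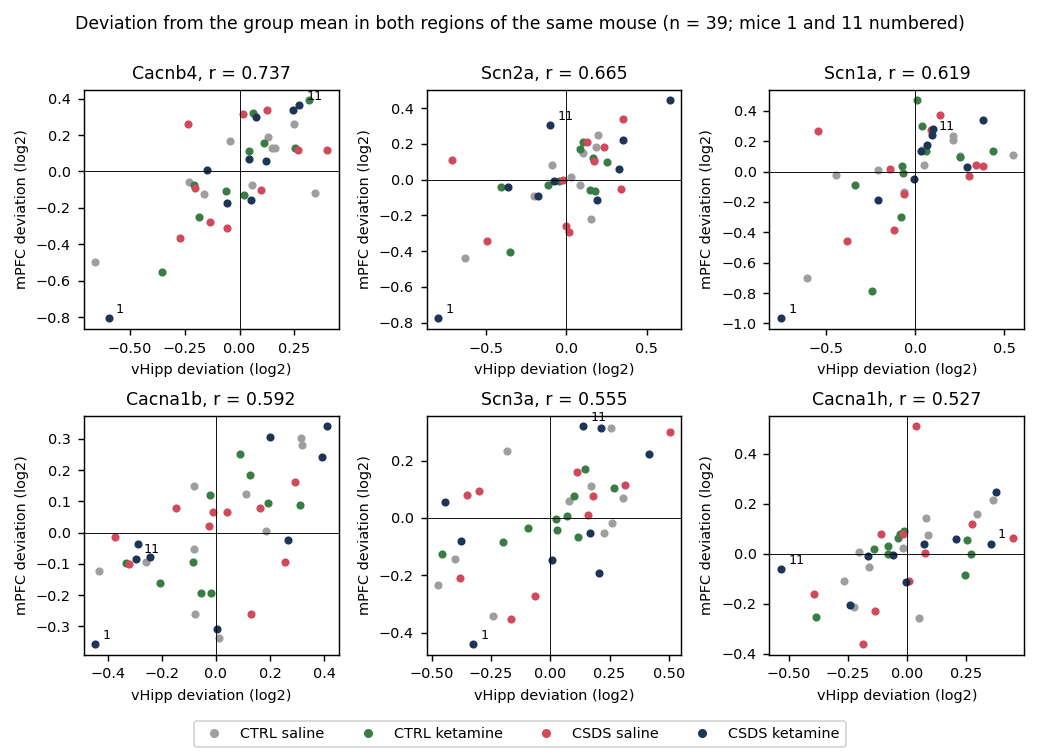
Deviation of log2 CPM from the group mean in the vHipp (x axis) and the mPFC (y axis) of the same mouse (n = 39) for the 6 channel genes with r of at least 0.5, coloured by group. Mouse 1 lies at the low end of Cacnb4, Scn2a and Scn1a in both regions.

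The 6 genes were Cacnb4 (r = 0.737, Spearman's rho 0.638), Scn2a (0.665 and 0.536), Scn1a (0.619 and 0.576), Cacna1b (0.592 and 0.605), Scn3a (0.555 and 0.561) and Cacna1h (0.527 and 0.619). Permutation p-values of r lay between 1e-05, the smallest that 100000 permutations can give, and 4.6e-04. Mouse 1 was lowest in the mPFC for 5 of them, all but Cacna1h, and lowest in the vHipp as well for Scn2a, Scn1a and Cacna1b, with log2 deviations in the mPFC and the vHipp of -0.81 and -0.60 for Cacnb4, -0.77 and -0.80 for Scn2a, and -0.96 and -0.75 for Scn1a. Mouse 24, a CTRL mouse with saline, was also low, with -0.50 and -0.66, -0.44 and -0.63, and -0.70 and -0.61 for the same genes. Mouse 12, a ketamine-treated CSDS mouse, was highest in both regions for Scn2a (0.44 and 0.64) and stood at 0.34 and 0.38 for Scn1a.

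Leaving out the 2 mice farthest from the median in the vHipp, r was 0.612 for Cacnb4, 0.672 for Scn2a, 0.540 for Cacna1b, 0.522 for Scn3a and 0.558 for Cacna1h, and 0.416 for Scn1a, for which those were mice 1 and 24, so that its r of 0.5 or more rested on them. Without mice 1 and 11, which gave the libraries that stood apart, r was 0.516 for Scn1a and between 0.530 and 0.659 for the other 5. With deviations taken from the mean of each group within its block of library numbers, which leaves about 2 mice in a group, r was 0.724 for Cacnb4, 0.773 for Scn2a, 0.815 for Scn1a, 0.682 for Cacna1b, 0.708 for Cacna1h and 0.267 for Scn3a, so that the relation of Scn3a did not hold within blocks.

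Libraries also differed by the GC content of transcripts. G and C made up 40.5% of the longest transcript of Cacnb4, 43.4% of Scn2a, 43.3% of Scn1a and 42.1% of Scn3a, but 52.9% of Cacna1b and 60.0% of Cacna1h. In mouse 1 the genes of lowest GC content deviated by -0.47 (mPFC) and -0.45 (vHipp) on the log2 scale relative to those of highest GC content, and in mouse 11 by 0.48 and 0.36. After the median deviation of each library at the same GC content was taken off, r was 0.566 for Cacnb4, 0.649 for Scn2a, 0.586 for Scn1a, 0.618 for Cacna1b, 0.381 for Scn3a and 0.424 for Cacna1h. It was thus lower than before for 5 of the 6 genes and higher for Cacna1b, and the median was 0.256 over the 33 channel genes and 0.250 over all 15184 genes, in place of 0.202 and 0.294. An r of at least 0.5 was then found for 15.2% of the channel genes and 17.5% of all genes. The part of GC content in these correlations was not tested.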

How the data were processed

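Bulk RNA sequencing covered 79 libraries of the mPFC and vHipp of 40 mice. The deposited values are raw read counts on genes, which the authors had not normalized. Per the study's methods, stranded mRNA libraries were sequenced in pairs of 151 nt, samples with RNA integrity under 8 and an outlier were removed, and the submitters' processing notes name bcl2fastq 2.20.0.422 and GRCm38. The aligner, the counting program and its strand setting are not given in the sources used here. Symbols from GENCODE matched 55144 of 55471 identifiers. Positions of 37 of 39 members were the same in both.

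Genes with more than 10 counts in total and detected in more than 3 libraries were tested with edgeR 4.0.16 (R 4.3.3), by its quasi-likelihood test with TMM normalization, no covariate and Benjamini-Hochberg adjustment over all genes, two-sided, threshold 0.05. All 8 groups entered the fit between regions, and the 4 groups of a region entered the other fits. The study's methods used the social box as a covariate, which is not in the labels used here. CPM used TMM factors of the fit of all libraries. Same-mouse correlations used a prior count of 0.5 and 100000 permutations (scipy 1.17.1), two-sided. Counting error was not compared with the spread between mice, and genes under about 1 CPM rest on few counts.

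Mouse numbers in the labels pair the regions, since both libraries come from the same animal. The median same-mouse r over 15184 genes was 0.294. Alternatives were the mouse as a block, RLE size factors, DESeq2 1.42.0, no filter, filterByExpr, the block of library numbers as a covariate, each of 5 such blocks left out, and only the groups compared. GC offsets (20 bins) and fits without mice 1 and 11 were chosen after seeing the data. The models were tested on simulated data of 6000 genes, in which 94% of genes changed 1.5-fold were recovered for stress with ketamine in the mPFC. The simulation left out genes of low counts, gave all genes the same spread and held no cage effect. It therefore does not give the share that would be recovered in the real data.

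The members, the lists and the tests were chosen with earlier results of these data known. Full values went to up to 3 members per role with the largest region difference past the threshold, to members with an unadjusted p under 0.01 for stress, ketamine or interaction, and to members with a same-mouse r of at least 0.5. Of the 39 members, 2 enter the counts but are not reported here by name.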

Additional observations from a re-analysis of the deposited data

How the results depend on the processing

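The counts of channel genes called kept within 1.5 times of the values reported under each alternative run. Between the regions the count went from 26 to 23 with filterByExpr, which removed Scn4a, Scn10a and Cacna1f, to 26 with DESeq2, RLE size factors, no filter or the block of library numbers as a covariate, to 27 with the GC offset, which added Cacna2d1, and to 25 to 27 with each block of library numbers left out, where Cacna1s was lost without block 1, 2 or 4 and Cacnb3 without block 1. With the mouse as a replicate block it was 28, adding Cacna1d and Cacna1i, and 27 with replicate block and GC offset together, adding Cacna2d1. In CTRL mice with saline the count of 20 went to 15 to 21 with blocks left out (15 without block 2, where Cacna1d, Cacna2d2, Scn2b, Scn4a and Scn8a were lost), to 19 with DESeq2, RLE size factors, no filter or filterByExpr, to 21 with block and GC offset, and to 22 with the mouse as a replicate block, adding Cacna2d3 and Scn2a, and Cacna1d was lost in most of these fits. For stress, ketamine and interaction no channel gene was called under any alternative. The replicate block changed no other call. Only the groups compared entered another fit for the simple effects, while the mean effects and interactions use all 4 groups, so that this alternative does not apply to them. No named value changed sign. The number of channel genes with a same-mouse r of at least 0.5 ranged from 5 to 8. With GC-corrected deviations it was 5 of 33 against 2655 of 15184 genes, and without mice 1 and 11 it was 6 against 2748. Genes under 1 CPM rest on few counts, and their folds are imprecise.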
